A study of Homo sapiens with 18 samples.

Results

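The genes described here encode the pore-forming and auxiliary subunits of potassium, sodium and voltage-gated calcium channels. They were chosen by symbol alone: the KCN genes, the SCN genes with a number and the letter A or B, and the CACNA1, CACNA2D, CACNB and CACNG genes. Of the 63677 gene identifiers in the tables, 135 met the rule, 95 for potassium, 14 for sodium and 26 for calcium channels. Of these, 79 reached 1 TPM in at least 3 libraries and were tested, 56 did not, and 10 were listed at 0 in every library (CACNG2, KCNU1, KCNJ13, KCNJ18, KCNV2, KCNK16, KCNK18, KCNA1, KCNA10 and KCNA7). A total of 46 members, these 10 included, stayed below 1 TPM in all 18 libraries.

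The study sequenced polyadenylated RNA from bulk tumours that grew in mice from 3 human neuroblastoma lines, namely SKNAS, LAN-1 and KELLY. A control and an Hmx1-labelled group were sequenced per line, with 3 libraries in each of the 6 groups. The labels state a treatment of none for every sample, and do not say how the Hmx1 tumours were made, whether the gene was raised or lowered, the host strain, the time of collection, or if a group's libraries stem from separate mice, so the p-values measure only how far these libraries spread, which may be technical spread. Each line is a single established cell line, and each is 1 model of the tumour.

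HMX1 itself lay at 0.193 to 1.24 TPM in the SKNAS Hmx1 tumours and was listed at 0 in the 3 SKNAS controls. In LAN-1 it lay at 11.1 to 11.9 TPM in control and 11.5 to 16.5 in Hmx1 tumours, and in KELLY at 3.92 to 7.72 and 4.68 to 6.4 TPM. Of 11 noradrenergic neuroblastoma markers, 8 were lower in SKNAS than in LAN-1 control tumours and 8 lower than in KELLY (median log2 differences -2.12 and -2.30). Of all genes tested, 20.5% and 16.1% were lower, and 1 and 2 of the markers were higher. HAND2, a member of that list, had group means of 245 to 356 TPM, while the Schwann cell factor SOX10 was at or near 0. TH, the first enzyme of catecholamine synthesis, was low in SKNAS, with means of 2.88 and 0.107 TPM, against 47.2 to 628 in the other lines. Of 9 mesenchymal neuroblastoma markers tested, 8 were higher and 1 lower in SKNAS than in LAN-1 control tumours, where 31.5% of all genes were higher. Against KELLY 5 were higher and 2 lower, near the share of all genes, of which 49.5% were higher. The median log2 difference from KELLY was 0.55 over these markers and 0.54 over all genes. The 8 fibroblast markers summed to 1147 to 1351 TPM in SKNAS control tumours, 136 to 161 in LAN-1 and 180 to 236 in KELLY. The part of these marker differences in the channel differences between lines was not tested. Mitochondrial transcripts took 4.47% to 33.8% of the TPM of a library, 14420 to 16441 genes reached 1 TPM, and the read number of a library is unknown, since TPM does not keep it.

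Voltage-gated sodium channels start the action potential, voltage-gated calcium channels turn a depolarization into calcium entry, and potassium channels repolarize the cell and set its resting potential. Each channel is built from a pore-forming subunit, and auxiliary subunits govern how many channels reach the membrane and how they gate. Neuroblastoma arises from the sympathoadrenal lineage, whose neurons and chromaffin cells are excitable, and neuroblastoma lines have long served as models for M-type and ERG potassium currents. TPM is scaled by transcript length, so levels are compared between genes on that scale, and differences are given as log2 changes of TPM + 1, which understate the change of low genes. In a bulk tumour, fewer cells of a type and less RNA per cell cannot be told apart.

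The 3 lines carried different channel repertoires on a shared core. Potassium channel transcripts summed to 276 to 333 TPM in SKNAS control tumours, 537 to 598 in LAN-1 and 446 to 589 in KELLY. Sodium channel transcripts were instead highest in SKNAS, at 65.3 to 72.2 TPM in SKNAS, 32.2 to 37.5 in LAN-1 and 12.7 to 28.1 in KELLY. The calcium channel sums were 214 to 262, 193 to 215 and 153 to 217 TPM, with ranges that overlapped between the lines. A line mean of at least 1 TPM was reached by 49 members in SKNAS, 56 in LAN-1 and 58 in KELLY, and of at least 10 TPM by 17, 16 and 19. Of all 135 members, 31 had a line mean of at least 1 TPM in all 3 lines and 58 in none. Only SKNAS reached it for 10 members, only LAN-1 for 4 and only KELLY for 8, and 21 members reached 1 TPM in each of the 18 libraries.

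**Figure D1:**
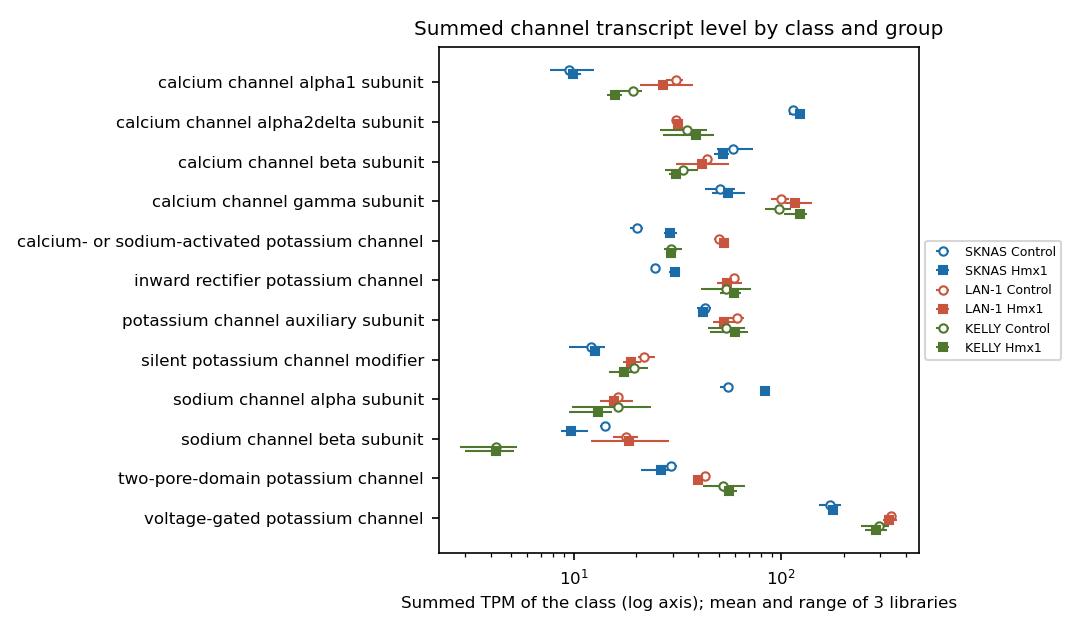
Summed TPM of each channel class (log axis) in the 6 groups; points are means and bars the range of 3 libraries, open for control and filled for Hmx1. Sodium channel alpha subunits sat at 51.0 to 57.3 TPM in SKNAS control tumours against 9.85 to 23.7 in the LAN-1 and KELLY control tumours, and voltage-gated potassium channels were lowest in SKNAS.

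Voltage-gated potassium channels made up the largest class. KCNQ3, a pore subunit of the M-type current that restrains repetitive firing, was listed at 0 in all KELLY libraries, did not exceed 0.0121 TPM in SKNAS, and lay at 0.239 to 0.870 TPM in LAN-1. KCNQ5, which can also form M-type channels, stood at 11 to 20.6 TPM in SKNAS control tumours, 6.44 to 7 in LAN-1 and 2.76 to 2.97 in KELLY, 3 ranges that did not overlap. In Hmx1 tumours its SKNAS minus LAN-1 difference was 0.30 and did not pass (adjusted p = 0.372, limma).

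The current of the ERG family shapes the resting potential of neuroblastoma cells. Its genes KCNH2 and KCNH6 reached a line mean of 1 TPM in all 3 lines, and KCNH7 in SKNAS and LAN-1 only. KCNH2 lay at 23.0, 26.8 and 24.6 TPM in SKNAS control libraries, 53.0, 51.2 and 51.7 in LAN-1 and 53.5, 65.8 and 54.7 in KELLY. KCNH7 ran in the opposite order, at 27.6, 12.3 and 32.4 TPM in SKNAS, 7.32, 6.55 and 9.35 in LAN-1 and 0.211, 0.661 and 0.307 in KELLY. KCNH2 was lower in SKNAS than in KELLY by a log2 difference of -1.19 (SE 0.16), and KCNH7 was higher by 4.08 (SE 0.30, adjusted p = 3.4e-09, limma). Reads of KCNH7 may include those of GCA, which overlaps its end on the other strand. KCNH8, of the related ELK family, followed KCNH7, with means of 12.3, 5.28 and 0.00855 TPM. Of the A-type channel genes, KCND2 was found at 3.89 to 5.30 TPM in SKNAS control tumours and at no more than 0.0838 in the other control tumours. KCND3 was found at 4.04 to 8.44 TPM in KELLY and at no more than 0.0627 in the other control tumours.

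Silent modifier subunits, which form no channel alone but change the channels they join, showed a similar exchange. KCNG1 lay at 8 to 12.2 TPM in SKNAS and 13.6 to 19.0 in KELLY control tumours and was listed at 0 in all 6 LAN-1 libraries. KCNS3 lay at 18.5, 22.3 and 18.8 TPM in LAN-1 and at no more than 2.04 in the control tumours of the other lines, a LAN-1 minus KELLY difference of 2.97 (SE 0.17, adjusted p = 2.78e-10, limma).

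Among calcium- and sodium-activated channels, KCNMA1, the pore of the large-conductance BK channel (chromosome 10, 78629359 to 79398353, minus strand), lay at 1.57, 2.11 and 0.948 TPM in SKNAS control tumours, 17.2, 19.6 and 18.1 in LAN-1 and 19.6, 11.8 and 19.0 in KELLY. KCNT2, a sodium-activated channel, was the most abundant of the class in SKNAS, at 15.2 to 18.6 TPM, against 8.07 to 9.85 in LAN-1 and 2.81 to 9.23 in KELLY. KCNT1 did not reach 1 TPM in any library. The small-conductance SK genes divided by line. KCNN2 stood at 11.8, 13.0 and 11.7 TPM in LAN-1 control tumours and at no more than 0.360 elsewhere among control tumours, and KCNN1 had means of 0.186, 10.2 and 4.40 TPM in the SKNAS, LAN-1 and KELLY control tumours.

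Inward rectifiers hold the resting potential, and the KATP subset couples it to metabolism. KCNJ8, a KATP pore gene, had the highest line mean of the class, taken over both arms, in LAN-1 (23.9 TPM) and KELLY (23.2). It lay at 20.9 to 24.6 TPM in LAN-1, 15.0 to 25.7 in KELLY and 6.09 to 7.17 in SKNAS. KCNJ12 stood at 9.35 to 11.3 TPM in LAN-1, 13.6 to 32.5 in KELLY and no more than 0.253 in SKNAS control tumours. KCNJ18, a near-identical copy of KCNJ12, was listed at 0 throughout, so reads of the pair may have been assigned to KCNJ12. KCNJ2, which carries the classical strong inward rectifier, was the leading member in SKNAS, with a line mean of 8.35 TPM. KCNJ6, a G-protein-gated channel, reached a line mean of 1 TPM only in KELLY, where its libraries lay at 1.01 to 1.97 TPM.

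The tandem-pore leak channels also differed. KCNK1 was the leading member in SKNAS, at 12.9 to 15.8 TPM in control tumours, and did not exceed 0.0615 in KELLY. KCNK2, a mechano- and lipid-sensitive leak channel, led in LAN-1 with a line mean of 17.4 TPM. KCNK9, an acid-sensitive leak channel (chromosome 8, 140613081 to 140715299, minus strand), led in KELLY at 13.3, 24.0 and 19.5 TPM in control tumours, against 8.50, 5.83 and 6.61 in LAN-1 and 0.182, 0.125 and 0.645 in SKNAS. These 3 ranges did not overlap, and the SKNAS minus KELLY difference was -3.90 (SE 0.29, adjusted p = 3.71e-09, limma). KCNK3, the closest relative of KCNK9, was less uneven, with control means of 5.83, 9.38 and 18 TPM. KCNK5 was found at 5.57 to 11.6 TPM in KELLY control tumours and listed at 0 in every SKNAS and LAN-1 control library.

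**Figure D2:**
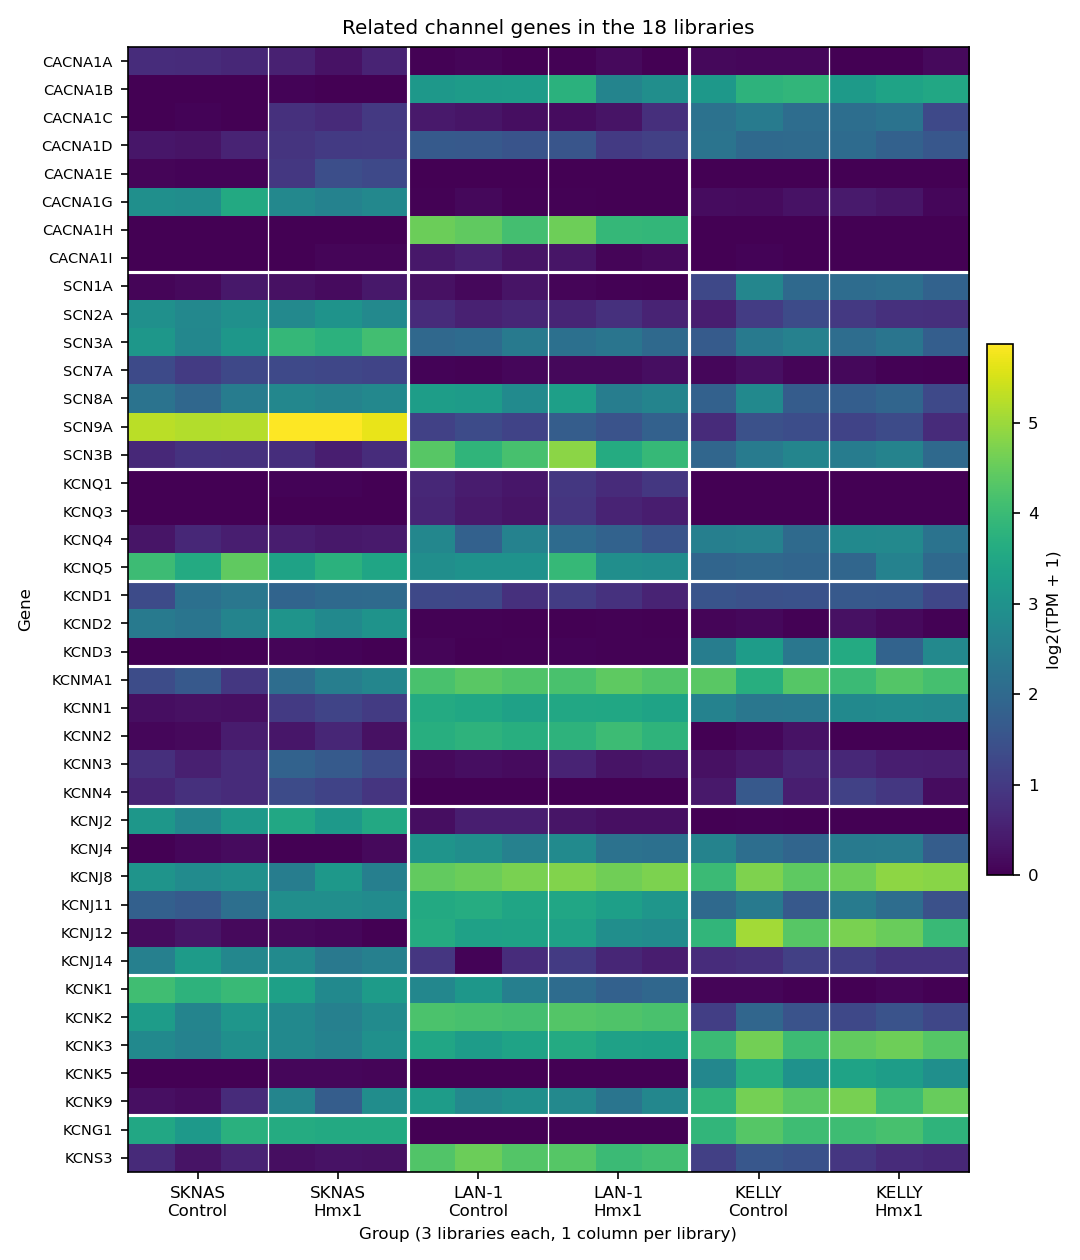
Level of related channel genes, as log2(TPM + 1) by colour, with 1 column per library and white lines between the groups and gene families. In some families the brightest gene differed between lines, such as CACNA1G in SKNAS (6.34 to 10.8 TPM in control tumours), CACNA1H in LAN-1 (16.5 to 22.5) and CACNA1B in KELLY. Other leading genes by line mean over both arms were shared, such as KCNMA1 and KCNJ8 by LAN-1 and KELLY, and KCNG1 by SKNAS and KELLY.

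Sodium channels were dominated in SKNAS by SCN9A, the pore gene of peripheral sympathetic and sensory neurons (chromosome 2, 167051695 to 167232503, minus strand). It lay at 37.6, 35.5 and 36.3 TPM in SKNAS control libraries, 1.19, 1.55 and 1.27 in LAN-1 and 0.646, 1.73 and 1.63 in KELLY. The SKNAS minus LAN-1 difference of 4.01 (SE 0.20, adjusted p = 2.12e-11, limma) was the largest rise of any member in that comparison. SCN2A was also higher in SKNAS, at 5.70 to 6.77 TPM against at most 0.653 in LAN-1 and 1.55 in KELLY. SCN8A led in LAN-1 (6.04 to 8.60 TPM), and SCN1A passed a line mean of 1 TPM only in KELLY (1.42 to 5.44). SCN3B, a beta subunit that modulates gating, lay at 0.608 to 0.819 TPM in SKNAS, 13.4 to 19.4 in LAN-1 and 2.85 to 5.35 in KELLY.

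Each line had its own leading calcium channel pore gene. The low-threshold T-type genes were CACNA1G in SKNAS (6.62, 6.34 and 10.8 TPM in control tumours) and CACNA1H in LAN-1 (22.5, 20.6 and 16.5), and neither exceeded 0.342 TPM in a KELLY library. CACNA1B, the N-type pore of sympathetic nerve endings, lay at 7.74 to 8.46 TPM in LAN-1, 7.81 to 13.5 in KELLY and at most 0.0135 in SKNAS control tumours. CACNA1C, an L-type pore, was highest in KELLY at 3.31 to 4.46 TPM. CACNA1D, the other neuronal L-type pore, had control means of 0.344, 2.06 and 3.29 TPM, and the P/Q-type gene CACNA1A did not exceed 0.666 TPM in any library. Reads of CACNA1C may include those of DCP1B, which overlaps it on the other strand over 33750 bases and was itself at a mean of 18.3 TPM.

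Together, the auxiliary calcium channel genes summed to more TPM than the pore genes in every group. CACNA2D1, an α2δ subunit that carries pore subunits to the membrane and binds gabapentin (chromosome 7, 81575760 to 82073114, minus strand), was the most abundant of all members in SKNAS. It lay at 113.5, 103 and 109.4 TPM in SKNAS control tumours, 15.3, 14.4 and 14.6 in LAN-1 and 5.51, 11 and 10.2 in KELLY. The SKNAS minus KELLY difference was 3.52 (SE 0.19, adjusted p = 3.65e-11, limma). CACNA2D3 ran the other way, with control means of 1.30, 9.46 and 12 TPM. CACNB3, a cytosolic β subunit, was the leading β gene in every line, at 31.2 to 50.2 TPM in SKNAS, 29.8 to 34.7 in LAN-1 and 16.0 to 24.2 in KELLY. CACNB2 was listed at 0 in all 6 KELLY libraries. CACNG4, which also regulates glutamate receptors, was the leading γ gene in every line, at 42.9 to 59.9, 68.8 to 87.5 and 67.7 to 91.0 TPM, and CACNG7 was listed at 0 in every SKNAS control library against 14.3 to 15.2 and 13.4 to 17.9 TPM in LAN-1 and KELLY.

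Counted over the 79 members tested, 26 were higher and 37 lower in SKNAS than in LAN-1 control tumours, where 52% of all 18650 genes tested were called (31.5% higher and 20.5% lower). SKNAS against KELLY gave 25 higher and 37 lower (background 65.7%, with 49.5% higher and 16.1% lower). LAN-1 against KELLY gave 27 higher and 20 lower (background 51.8%, with 38.2% higher and 13.6% lower). These counts are descriptions, because a member could enter the test through the line in which it was high. The median log2 difference over all genes was 0.18 for SKNAS minus LAN-1, 0.54 for SKNAS minus KELLY and 0.34 for LAN-1 minus KELLY, and over members -0.37, -0.25 and 0.03, so member values are read against those shifts. In the Hmx1 tumours the medians over all genes were 0.23, 0.52 and 0.25. With median-ratio scaling, which brought the median of all genes to -0.01, LAN-1 against KELLY gave 21 higher and 30 lower. It gave 21 and 26 with quantile normalization, 21 and 24 with FPKM, and 22 and 25 without mitochondrial transcripts, so the balance of directions in that comparison turned with the scaling. The Hmx1 tumours, which are separate libraries, gave 26 higher and 33 lower for SKNAS against LAN-1 (background 53.1%, with 34.2% higher and 18.9% lower). They gave 30 and 33 for SKNAS against KELLY (background 64.8%, with 48.7% higher and 16.1% lower). For LAN-1 against KELLY they gave 30 and 23 (background 49.9%, with 33.9% higher and 16% lower). This last split became 25 and 28 with median-ratio scaling, but 26 and 25 with FPKM. It was 28 and 27 with quantile normalization and 26 and 24 without mitochondrial transcripts. In Hmx1 tumours, SKNAS against KELLY was 23 and 40 with quantile normalization.

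Most line differences recurred in both arms. Of the members called in control tumours, 23 of 26 higher and 32 of 37 lower were called in the same direction in Hmx1 tumours for SKNAS against LAN-1. The counts were 22 of 25 and 32 of 37 for SKNAS against KELLY, and 24 of 27 and 20 of 20 for LAN-1 against KELLY. No member was called in opposite directions. This recurrence was not counted over all genes tested, so it is not shown to be particular to the members. The members called lower in SKNAS than in LAN-1 in control tumours but not in Hmx1 tumours were CACNA1D, CACNG8, KCNJ11, KCNK9 and SCN8A. CACNA2D2 was called lower in SKNAS than in KELLY in control tumours but not in Hmx1 tumours, and it was called higher in SKNAS than in LAN-1 in Hmx1 tumours but not in control tumours.

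Within lines, channel genes differed between arms mainly in SKNAS. There 13 members rose and 4 fell in Hmx1 tumours, 17 of 79, and of all genes tested 8.76% were called (4.96% as rises and 3.8% as falls). The medians of the log2 change were 0.07 over the members and 0.00 over all genes. The groups did not overlap for 44 members, against 30.9% of all genes. The rises fell in 8 of the 12 channel classes and included 3 of the 6 calcium- or sodium-activated potassium channel genes tested, while no γ, sodium β or silent subunit was called. The count was 11 without SKNAS control replicate 1, 10 without SKNAS control replicate 2 and 11 without SKNAS Hmx1 replicate 3.

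The largest rise was that of CACNA2D2, an α2δ subunit (chromosome 3, 50400233 to 50541675, minus strand). It lay at 3.55, 4.22 and 5.32 TPM in SKNAS control and 16.9, 27.6 and 23.3 in SKNAS Hmx1 tumours, a log2 change of 2.12 (SE 0.36, adjusted p = 0.000657, limma). Every Hmx1 library lay above every control library, and the Hmx1 level exceeded the KELLY libraries' maximum of 21.3 TPM in 2 of 3 libraries. The paralogue CACNA2D3 fell from 1.31, 1.67 and 0.917 to 0.385, 0.254 and 0.496 TPM (log2 change -0.73, SE 0.19, adjusted p = 0.0234, limma), and the far more abundant CACNA2D1 stood at 91.8 to 107.1 TPM in Hmx1 tumours and did not pass. KCNK9 rose from the values above to 5.34, 2.33 and 6.34 TPM (log2 change 2.05, SE 0.29, adjusted p = 0.000103, limma), while KCNK1, the leading leak channel of this line (chromosome 1, 233749750 to 233808258, plus strand), fell from 15.8, 12.9 and 14.8 to 9.13, 5.94 and 8.32 TPM (log2 change -0.83, SE 0.18, adjusted p = 0.00516, limma). The fall of KCNK1 did not pass with a pseudocount of 0.1. KCNK6, another leak channel, rose from 0.574 to 1.07 up to 1.25 to 1.96 TPM.

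Of the calcium-activated potassium channel genes, KCNMA1, KCNN1 and KCNN3 rose. KCNMA1 went from 1.57, 2.11 and 0.948 to 3.31, 4.68 and 5.52 TPM (log2 change 1.12, SE 0.22, adjusted p = 0.00215, limma), KCNN3 from 0.729, 0.437 and 0.647 to 2.60, 2.19 and 1.52 (0.94), and KCNN1 from 0.168, 0.206 and 0.185 to 1, 1.29 and 1.02 (0.82). In each of the 3 genes the arms did not overlap, and KCNMA1 in the Hmx1 tumours remained below every LAN-1 and KELLY library. KCNMB4, the neuronal auxiliary β subunit of the BK channel, fell from 6.67, 6.07 and 8.97 to 2.98, 3.14 and 4.62 TPM (log2 change -0.85, SE 0.22, adjusted p = 0.0203, limma).

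KCNJ11, the pore of the neuronal and beta-cell KATP channel (chromosome 11, 17407406 to 17410878, minus strand), rose from 2.46, 2.17 and 3.43 to 6.47, 6.42 and 6.12 TPM (log2 change 1.01, SE 0.24, adjusted p = 0.00996, limma). ABCC8, which encodes its sulfonylurea receptor subunit and lies beside it on chromosome 11 (17414432 to 17498449), rose from 0.139, 0.162 and 0.153 to 8.92, 8.21 and 6.65 TPM (log2 change 2.95). In LAN-1 and KELLY both genes were present in both arms, KCNJ11 at 1.75 to 11.5 TPM and ABCC8 at 2.81 to 11.9, so SKNAS control tumours stood apart by their low ABCC8. The call of KCNJ11 was lost without SKNAS control replicate 2.

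Of the sodium channels, SCN3A, a pore gene of developing neurons (chromosome 2, 165944032 to 166060577, minus strand), rose from 7.61, 5.61 and 7.65 to 14.2, 12.7 and 16.2 TPM (log2 change 0.95, SE 0.23, adjusted p = 0.0113, limma). It did not pass without SKNAS control replicate 2 or without SKNAS Hmx1 replicate 3. SCN9A lay at 35.5 to 37.6 TPM in control and 49.9 to 57.6 in Hmx1 tumours, with no overlap, but its log2 difference of 0.57 (SE 0.20) did not pass (adjusted p = 0.107, limma). The summed level of the alpha subunits was 51.0 to 57.3 TPM in control and 80.7 to 85.4 in Hmx1 tumours, and 65.6% of the line's total came from SCN9A.

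Among calcium channel genes, CACNB2 rose from 4.36, 4.34 and 4.95 to 8.05, 10.8 and 6.45 TPM (log2 change 0.74), and the L-type gene CACNA1C rose from 0, 0.0337 and 0 to 0.757, 0.620 and 0.959 TPM. The R-type gene CACNA1E, too low to be tested, was at 0.0433 to 0.0522 TPM in SKNAS control and 0.933 to 1.68 in SKNAS Hmx1 tumours, and at no more than 0.00168 in the other lines. The leading pore gene CACNA1G lay at 6.34 to 10.8 and 5.10 to 5.70 TPM and CACNB3 at 31.2 to 50.2 and 20.6 to 28.3, without overlap and without passing the test (adjusted p of 0.149 and 0.0935, limma). Of the voltage-gated potassium channels, KCNH6 rose from 0.619 to 0.762 up to 1.64 to 2.11 TPM (log2 change 0.78), KCNH4 from 0.0778 to 0.307 up to 0.717 to 1.38 (0.75) and KCND2 from 3.89 to 5.30 up to 5.90 to 7.24 (0.50). KCNH8 fell from 11.7 to 12.6 down to 7.19 to 8.80 TPM (log2 change -0.56, adjusted p = 0.0481, limma). The change of KCNH2, the leading ERG gene, was 0.24 (SE 0.16) and did not pass. Of these 17 calls, KCNH4, CACNA1C, KCNH8, KCNK6 and KCND2 were the least stable, each lost in at least 6 of the 14 or 15 alternative settings run, whereas CACNA2D2, KCNK9, KCNMA1, KCNH6 and KCNN3 passed in all of theirs.

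**Figure D3:**
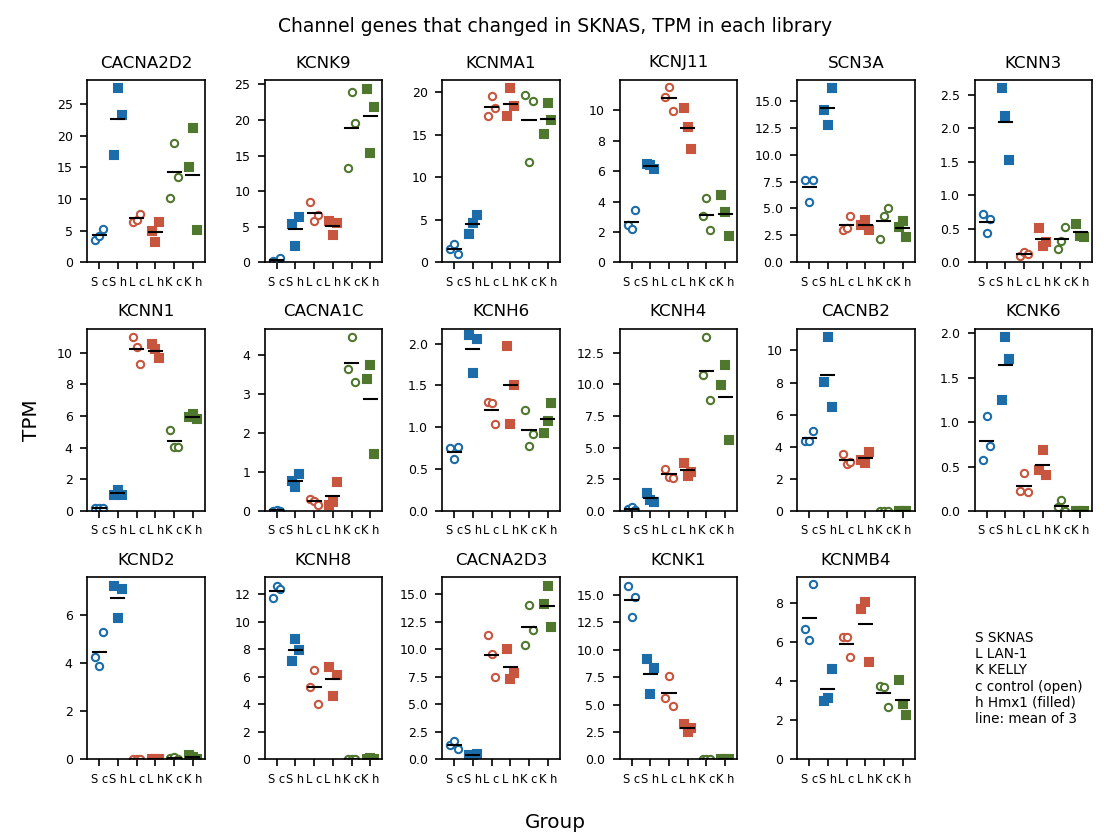
TPM of the 17 genes called in SKNAS, in each library of the 6 groups (open circles control, filled squares Hmx1, black lines the mean of 3 libraries; each panel has its own axis from 0). In SKNAS the filled and open points do not overlap in any panel; CACNA2D2 moved from 3.55 to 5.32 TPM up to 16.9 to 27.6, and KCNK1 from 12.9 to 15.8 down to 5.94 to 9.13.

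Sequence upstream of the start sites was examined for all members and for those called in SKNAS, whether higher or lower. The windows were the 250 bases before each RefSeq start on GRCh38.p14. For all members, 149 such windows of 97 of the 135 were searched. For those called in SKNAS, 21 windows of 13 of the 17 were searched. Windows on the chromosome that holds KCNK9 were left out of this second set only. KCNK9 is therefore not among the 13. The motif CAAGTG, the core bound by HMX-family homeodomain proteins, was searched on both strands. It lay in 6.04% of the members' windows against 9.50% of all 35116 windows, and in 1 of the 21 windows of called members, a start of CACNB2. The motif GGGCGG, the core of the GC box, lay in 49.7% of the members' windows against 42.6% of all, and in 13 of those 21. The median GC content of those 21 windows was 68.8%, against 58.0% of all windows. A match describes these letters only. The sequences below are 1 upstream window each of the largest rise (CACNA2D2), of the BK pore (KCNMA1), of the leak channel that fell (KCNK1) and of the single CAAGTG match (CACNB2), each 5′ to 3′ on the gene's strand, with GGGCGG and CAAGTG on either strand in capitals. They lie at chr3:50503635-50503884 (minus strand), chr10:77637809-77638058 (minus strand), chr1:233613856-233614105 (plus strand) and chr10:18340459-18340708 (plus strand).
CACNA2D2: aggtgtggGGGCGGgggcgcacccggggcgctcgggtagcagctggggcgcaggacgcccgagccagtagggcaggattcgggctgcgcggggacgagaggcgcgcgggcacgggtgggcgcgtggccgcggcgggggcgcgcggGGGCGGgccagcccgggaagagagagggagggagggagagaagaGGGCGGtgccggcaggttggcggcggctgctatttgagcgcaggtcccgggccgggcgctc
KCNMA1: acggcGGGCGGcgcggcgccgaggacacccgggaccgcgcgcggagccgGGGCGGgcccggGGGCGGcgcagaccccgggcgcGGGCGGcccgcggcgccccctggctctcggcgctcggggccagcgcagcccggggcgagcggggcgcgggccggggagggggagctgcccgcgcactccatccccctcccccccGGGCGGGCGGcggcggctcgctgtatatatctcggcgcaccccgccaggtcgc
KCNK1: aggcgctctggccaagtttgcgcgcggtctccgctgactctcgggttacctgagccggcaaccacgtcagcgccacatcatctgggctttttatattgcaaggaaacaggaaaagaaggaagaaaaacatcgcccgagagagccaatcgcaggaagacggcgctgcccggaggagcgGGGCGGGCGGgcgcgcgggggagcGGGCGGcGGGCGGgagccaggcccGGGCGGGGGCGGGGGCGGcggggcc
CACNB2: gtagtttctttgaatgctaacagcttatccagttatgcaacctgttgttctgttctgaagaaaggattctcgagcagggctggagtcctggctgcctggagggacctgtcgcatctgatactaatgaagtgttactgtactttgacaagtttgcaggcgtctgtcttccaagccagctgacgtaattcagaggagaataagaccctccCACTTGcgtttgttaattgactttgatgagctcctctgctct

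The printed CACNA2D2 window held GGGCGG 3 times, the printed KCNMA1 window 6 times and the KCNK1 window 7 times. CACNA2D2 and KCNMA1 each had a second start, whose window (chr3:50504245-50504494 and chr10:77350762-77351011) held GGGCGG 0 times. The printed CACNB2 window held no GGGCGG and had a GC content of 46.4%, and the windows of its other starts held none either.

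In LAN-1, KCNK1 was the member called (background 0.45%, with 0.279% lower). It fell from 5.61, 7.61 and 4.82 to 3.22, 2.53 and 2.87 TPM, a log2 change of -0.84 (SE 0.18, adjusted p = 0.0474, limma), near the change in SKNAS, and no libraries overlapped between arms. The call did not pass with the 2 arms fitted alone, with a pseudocount of 0.1, without a filter, with quantile normalization, or without LAN-1 control replicate 1 or 2 or any single LAN-1 Hmx1 library. KCNA3, a delayed rectifier of lymphocytes and neurons, was at 0.17 to 0.635 and 1.09 to 1.85 TPM, with a log2 change of 0.79 (SE 0.18) that did not pass (adjusted p = 0.0667, limma). KCNIP4, an auxiliary subunit of A-type channels, lay at 1.99 to 3.28 and 0.587 to 1.65 TPM and did not pass (adjusted p = 0.155, limma). Its reads may include those of PACRGL, which overlaps it on the other strand over 24292 bases and had a mean of 39.5 TPM. With median-ratio scaling and with FPKM, 1 member was higher and 1 lower, and with quantile normalization 1 was higher and none lower. In KELLY 0 of 79 members were called by limma (background 0.0912%), and 3 had an unadjusted p under 0.05, namely KCNS3 (1.18 to 2.04 and 0.562 to 0.916 TPM, log2 change -0.64, SE 0.17, adjusted p = 0.317), KCNK7 and KCNN1. In LAN-1, 7 members had an unadjusted p under 0.05. The share of all genes under that unadjusted threshold was not counted, so no result about the members is drawn from these counts.

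The difference between the Hmx1 effects of lines was tested directly. SKNAS exceeded LAN-1 for 6 members, CACNA2D2, KCNK9, KCNJ11, KCNMA1, CACNA1D and KCNN1 (background 4.99%, with 2.98% higher), and exceeded KELLY for 4, CACNA2D2, KCNK9, CACNA1C and KCNN3 (background 4.85%, with 2.5% higher). The direction of the first count depended on the scaling, with 3 members higher and 4 lower in SKNAS than in LAN-1 under quantile normalization and 5 and 2 with FPKM. These comparisons share the SKNAS libraries. The change of CACNA2D2 was -0.48 (SE 0.36) in LAN-1 and -0.19 (SE 0.36) in KELLY, and that of KCNK9 was -0.40 (SE 0.29) and 0.12 (SE 0.29). For KCNK1 the SKNAS minus LAN-1 difference was 0.01 on the log2 scale and the SKNAS minus KELLY difference -0.81, and neither passed. For SCN3A the differences of 0.94 and 1.12 did not pass (adjusted p of 0.124 and 0.0558, limma). Between LAN-1 and KELLY 0 members differed by limma (background 0.209%), with 4 at an unadjusted p under 0.05, where the share of all genes was not counted.

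**Figure D4:**
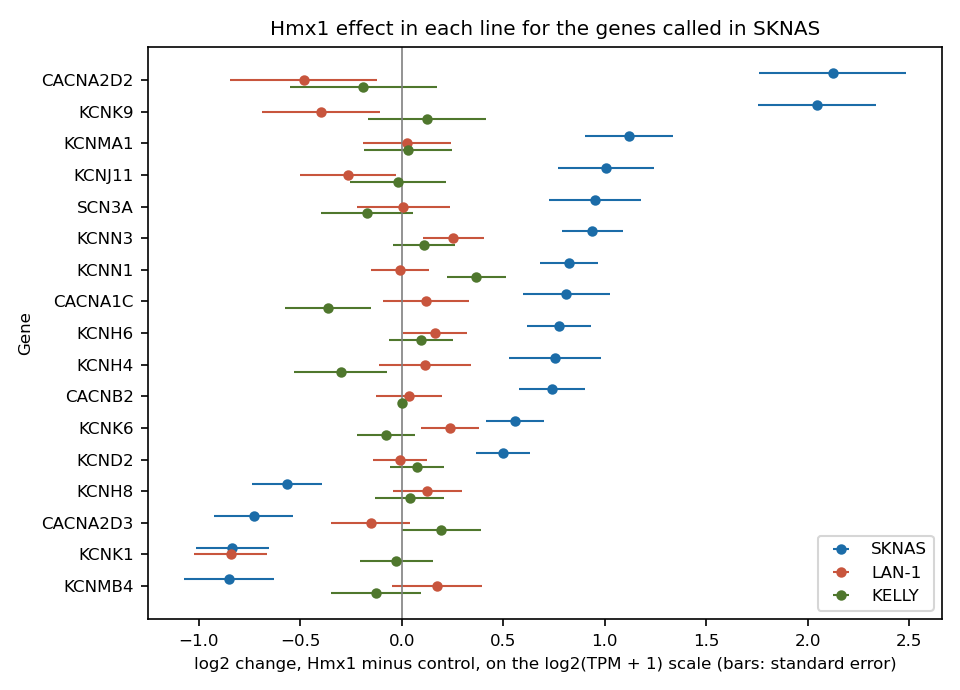
Log2 change, Hmx1 minus control, with its standard error, in each line for the 17 genes called in SKNAS, ordered by the SKNAS change. The SKNAS changes run from 2.12 for CACNA2D2 to -0.85 for KCNMB4, and KCNK1 has nearly the same change in SKNAS (-0.83) and LAN-1 (-0.84). CACNB2 has no bar in KELLY, where every library listed it at 0.

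Of 29 tested genes for channel-binding partners, 4 rose and 4 fell in SKNAS, where 8.76% of all genes tested were called (4.96% higher and 3.8% lower). LRRC55, a γ subunit of the BK channel, rose from 0.627 to 0.648 up to 10.4 to 14.9 TPM (log2 change 3.09), FGF14, which binds sodium channel alpha subunits, from 1.44 to 2.26 up to 8.49 to 12.6 (1.97), and DLG2, a scaffold protein, from 4.28 to 6.13 up to 10.9 to 14.4 (1.19). RIMS1 and RIMS2, which tether calcium channels at release sites, fell from 5.91 to 8.85 down to 0.520 to 0.979 TPM (log2 change -2.29) and from 10.4 to 12.7 down to 2.33 to 3.87 (-1.69). DPP10, an auxiliary subunit of A-type channels, fell from 1.76 to 3.12 down to 0.673 to 0.990 TPM. Of 36 other cation channel genes tested, 5 rose (NALF1, ASIC4, PIEZO1, TRPM4 and P2RX7) and none fell. Of 19 genes for intracellular calcium release and pumps, none rose and 2 fell, RYR2 and ITPR3, a share near that of all genes. Of 13 genes for the sodium-potassium pump and chloride cotransporters, FXYD6 rose and none fell, again a share near that of all genes. Of 9 repressors of neuronal channel genes none passed in SKNAS. Together they summed to 626 to 724 TPM in SKNAS control and 688 to 815 in SKNAS Hmx1 tumours, with a median log2 change of 0.05. REST, a member of that list, lay at 11.3 to 12.7 TPM in SKNAS control and 6.25 to 8.60 in SKNAS Hmx1 tumours. REST lay at 0.432 to 1.74 TPM in KELLY control tumours. In LAN-1 the only call in these lists was the fall of ATP2A3, a calcium pump, from 2.01 to 2.32 down to 0.334 to 0.532 TPM, and in KELLY there was none.

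Markers of other cells and cell states also moved between the SKNAS arms. The 10 mesenchymal neuroblastoma markers summed to 720 to 784 TPM in control and 490 to 540 in Hmx1 tumours, with SNAI2, TWIST1 and NOTCH2 lower and MEOX2 higher. Of the 11 noradrenergic markers CHGA was higher (group means of 825 and 1508 TPM) and TH lower. The 8 leukocyte markers summed to 77.4 to 105 TPM in control and 190 to 287 in Hmx1 tumours, and PTPRC alone gave group means of 91.9 and 231. None of the other 7 exceeded 1.65 TPM in a SKNAS library, CD14 fell, and ITGAM and AIF1 were listed at 0 in all control libraries. The 8 fibroblast markers summed to 1147 to 1351 and 792 to 880 TPM, with PDGFRA, LUM and DPT lower. The 9 smooth muscle and pericyte markers summed to 501 to 553 and 690 to 840 TPM, mostly RGS5, and none was called. Skeletal muscle markers summed to 13.0 to 19.5 and 7.62 to 12.6 TPM, with TNNI2 lower. Of the endothelial markers TEK was higher and ENG lower, and of the Schwann cell markers S100B was higher. The part of these markers in the channel changes was not tested.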

How the data were processed

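Gene tables of 18 libraries were used, 1 per library. Stranded poly(A) libraries were sequenced as read pairs, per the labels' protocols. The submitters' processing notes name STAR, bcl2fastq, FastQC and, as builds, GRCh37 and GRCh38.p12, each with no role. The gene annotation, the tool behind the tables, the use of strand and any removal of mouse reads were not given in the sources used here. Reads of opposite-strand neighbours may not be told apart and host RNA may be included. Levels are in TPM, which the authors deposited for each gene. FPKM, also deposited, per the file headers, served as an alternative, and the deposited coverage signal was not used in tests. The last chromosome 1 gene ends at 249231242, beyond 248937099 in RefSeq GRCh38, so coordinates were read as GRCh37. Symbols came from a gene name table by identifier (52181 of 63677 matched), and the TPM of repeated identifiers were summed. Replicates were no copies: r within groups was 0.961 to 0.989 and at most 3 values above 0 were identical in a pair.

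Tests used limma 3.58.1 (R 4.3.3) on log2(TPM + 1) of 18650 genes with at least 1 TPM in at least 3 libraries, fitted to 6 group means with a mean-variance trend (12 residual and 4.95 prior degrees of freedom). Benjamini-Hochberg adjustment covered all genes tested, and genes were called at an adjusted p under 0.05, in 12 comparisons. The fit was tested on simulated data. The members, the lists of partner genes and the marker lists were chosen with earlier results of these data known. Genes named were all members called where there were at most 20, otherwise the 10 largest rises and falls, the leading member of each class and line, and a fixed list of well-known channel genes, and further members were chosen after their values were seen. Alternatives were the compared groups fitted alone, a pseudocount of 0.1, no filter, a minimum of 5 TPM, FPKM, median-ratio scaling, quantile normalization, no mitochondrial transcripts, no trend, and each library left out. Some members and markers are not reported here by name, and they remain in the counts and class sums.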

Additional observations from a re-analysis of the deposited data

Results flagged for a closer look

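The Hmx1 effect differed between lines, by limma's test of the difference itself, for 10 pairs of a member and a line comparison. Between SKNAS and LAN-1 these were 7.59% of the members tested, against 4.99% of all genes. Between SKNAS and KELLY they were 5.06%, near the 4.85% of all genes. The log2 difference SKNAS minus LAN-1 was 2.61 for CACNA2D2 (SE 0.51, adjusted p = 0.00409), 2.45 for KCNK9 (SE 0.41, adjusted p = 0.0011), 1.27 for KCNJ11, 1.09 for KCNMA1, 0.938 for CACNA1D and 0.832 for KCNN1. The log2 difference SKNAS minus KELLY was 2.31 for CACNA2D2 (SE 0.51, adjusted p = 0.0111), 1.92 for KCNK9 (SE 0.41, adjusted p = 0.00874), 1.17 for CACNA1C and 0.83 for KCNN3. KCNK9 passed in all 21 alternatives of each comparison, and CACNA2D2 in all 21 against LAN-1 and in 20 of 21 against KELLY, where it did not pass with the compared groups fitted alone. The call of KCNMA1 held in 5 of 21 alternatives, that of CACNA1D in 9 of 20, KCNJ11 in 10 of 21, KCNN1 in 13 of 21, and CACNA1C and KCNN3 in 11 of 20 each. CACNA1D was itself not called in SKNAS, where it lay at 0.238 to 0.509 TPM in control and 0.842 to 1.04 in Hmx1 tumours (log2 change 0.55, SE 0.17, adjusted p = 0.0549). Against LAN-1 the count of 6 fell to 2 without SKNAS control replicate 1, SKNAS Hmx1 replicate 2, or LAN-1 control replicate 1 or 2, and to 3 without LAN-1 Hmx1 replicate 2 or 3. Against KELLY the count of 4 became 7 without KELLY control replicate 1, 8 without KELLY Hmx1 replicate 1 and 2 without KELLY Hmx1 replicate 3.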

How the results depend on the processing

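The line differences in either arm, the SKNAS count and the LAN-1 against KELLY difference in effect kept within 1.5 times their main value under the settings other than leaving out a library. In LAN-1 the count of 1 became 0 with the groups fitted alone or a pseudocount of 0.1, 3 with no filter, and 2 with FPKM or median-ratio scaling, and in KELLY the count of 0 became 1 with no filter or median-ratio scaling. The 6 differences in effect between SKNAS and LAN-1 became 11 with a pseudocount of 0.1 or with no filter, and their directions, 6 higher and 0 lower, became 3 and 4 with quantile normalization, 5 and 2 with FPKM and 4 and 1 with median-ratio scaling. The 4 between SKNAS and KELLY became 1 with the groups fitted alone, 12 with a pseudocount of 0.1, 9 with no filter or without mitochondrial transcripts, 2 with a minimum of 5 TPM, 8 with FPKM (7 higher, 1 lower) and 10 with median-ratio scaling, and were 3 higher and 2 lower with quantile normalization. Leaving out 1 library gave 10 to 13 calls in SKNAS, 0 to 1 in LAN-1, 0 in KELLY, 2 to 7 for the effect in SKNAS against LAN-1, 2 to 8 against KELLY and 0 for LAN-1 against KELLY. For the line differences it gave 57 to 61, 60 to 62 and 40 to 46 in control tumours and 56 to 59, 60 to 62 and 46 to 51 in Hmx1 tumours. Of 3212 alternative values for 212 results of single genes, 3071 kept direction and call, 126 lost the call, 15 gained it and 0 reversed. The causes were not tested. Because TPM keeps no depth, no counting error can be given. No paired analysis was possible because the labels give no replicate number that libraries of different groups share.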
